A study of Mus musculus with 17 samples.

Results

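A set of 10 genes of the TNF superfamily was followed across the 3 groups of an RNA-Seq experiment on mouse peritoneal macrophages (PMs). They were the rows of the deposited table whose gene symbol was Tnf, Tnfsf9, Tnfsf10, Tnfsf15, Tnfrsf1a, Tnfrsf1b, Tnfrsf4, Tnfrsf9, Tnfrsf8 or Fas, and all 10 symbols were found among 21683 rows. Of these, 4 encode ligands and 6 encode receptors. The cells came from 8-week-old mice of the C57BL/6 strain that carry floxed alleles of the kinase IKKβ, the controls included. Thioglycollate was injected into the peritoneum to draw macrophages there 3 days before collection by the labels, while the study's methods give a longer interval. Cells of IKKβF/F mice were cultured with PBS (F/F PBS, n = 6 libraries) or 100 nM HIV protein Tat (F/F Tat, n = 6), and cells of IKKβΔMye mice with 100 nM Tat (ΔMye Tat, n = 5), each for 12 h. Tat, the viral transactivator, was a recombinant protein of the first coding exon made in Escherichia coli, and the control here was PBS, not the placebo preparation used elsewhere in the study. IKKβ is the kinase that activates canonical NF-κB, and in ΔMye mice it was deleted by Cre recombinase from 1 copy of the lysozyme M locus, which is active in macrophages and neutrophils. ΔMye cells given PBS were not analysed here, so what sets ΔMye Tat apart from F/F Tat may have been there before Tat was given. The study describes the libraries of a group as biological replicates from separate mice.

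Ligands of the TNF superfamily are made as membrane proteins that form trimers, and several are also cut loose as soluble cytokines. Their receptors have no enzyme activity of their own and work through bound adaptors. Receptors with a death domain, such as TNFR1 and Fas, can lead to NF-κB activation or to cell death, whereas TNFR2, OX40, CD137 and CD30 bind TRAF adaptors. Macrophages are a major source of TNF, and TNF receptor signalling itself activates IKKβ.

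Tnf lies on mouse chromosome 17 between its relatives Ltb and Lta, which encode the lymphotoxins β and α. In the GENCODE M21 annotation of GRCm38 it spans 35199381 to 35202007 on the minus strand, 3060 bp from Ltb and 1157 bp from Lta (35203165 to 35205351), with no protein-coding gene between them. Tnfsf9 is further along the same chromosome (57105325 to 57107757). Chromosome 4 holds 5 of the 10 genes. Tnfsf15 spans 63727084 to 63745113 there, and Tnfrsf1b (145213463 to 145246870) and Tnfrsf8 (145267137 to 145315164) stand 20.3 kb apart. Tnfrsf9 (150914562 to 150946102) overlaps Camta1 on the opposite strand, and Tnfrsf4 (156013843 to 156016612) is 9551 bp from Tnfrsf18. The other members are Tnfsf10 on chromosome 3 (27317028 to 27342427), Tnfrsf1a on chromosome 6 (125349362 to 125362484) and Fas on chromosome 19 (34290666 to 34327772). At most 1.15% of a member's 31-base sequences also occurred in transcripts of another gene.

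The 250 bases before the RefSeq start (GRCm38.p6) are printed for Tnf and its neighbour Lta, whose levels went apart between the groups given Tat, for Tnfrsf1b, the most abundant receptor, and for Tnfrsf8. For Tnfrsf9, 30 bases that lie 58 to 29 bases before its second RefSeq start are shown. The 250-base window before that start overlaps an exon of the GENCODE annotation. Capitals mark matches to 4 motifs searched on both strands: the κB consensus, the interferon-stimulated response element core (GAAA, any 2 bases, GAAA), the STAT motif GAS (TTCNNNGAA) and TATAAA.

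Tnf (chr17:35202008-35202257, minus strand): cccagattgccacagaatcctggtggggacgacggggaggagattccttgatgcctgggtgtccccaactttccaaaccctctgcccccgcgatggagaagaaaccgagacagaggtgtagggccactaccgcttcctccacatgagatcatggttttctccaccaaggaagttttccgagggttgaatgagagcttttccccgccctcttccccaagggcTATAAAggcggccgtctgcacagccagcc
Lta (chr17:35205352-35205601, minus strand): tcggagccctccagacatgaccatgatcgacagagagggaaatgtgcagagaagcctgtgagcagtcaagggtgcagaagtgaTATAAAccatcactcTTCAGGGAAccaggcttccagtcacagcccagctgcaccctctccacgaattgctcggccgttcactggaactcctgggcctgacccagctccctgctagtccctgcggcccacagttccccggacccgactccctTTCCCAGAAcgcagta
Tnfrsf1b (chr4:145246871-145247120, minus strand): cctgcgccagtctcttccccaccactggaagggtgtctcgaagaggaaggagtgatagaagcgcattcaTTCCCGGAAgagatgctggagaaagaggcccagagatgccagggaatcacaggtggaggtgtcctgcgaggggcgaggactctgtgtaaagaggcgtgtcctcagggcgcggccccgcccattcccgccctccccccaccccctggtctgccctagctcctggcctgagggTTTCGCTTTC
Tnfrsf8 (chr4:145315165-145315414, minus strand): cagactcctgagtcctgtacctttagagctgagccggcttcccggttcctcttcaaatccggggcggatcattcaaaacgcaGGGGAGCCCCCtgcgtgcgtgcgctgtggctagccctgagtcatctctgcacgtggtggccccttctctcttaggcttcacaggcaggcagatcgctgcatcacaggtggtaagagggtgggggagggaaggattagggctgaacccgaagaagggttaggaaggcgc
Tnfrsf9 (chr4:150927941-150927970, plus strand): cctcacagagcagctGGGGATTTCCCagga

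In the Tnf window only TATAAA was found, 29 to 24 bases before the start. Lta had 2 GAS matches and a TATAAA, Tnfrsf1b a GAS match and, in its last 10 bases, the interferon element core on the opposite strand. Tnfrsf8 and Tnfrsf9 each held 2 overlapping κB matches. Promoter entries were found for 9 of the 10 members, with Tnfsf9 the one without. Over their 10 windows (Tnfrsf9 has 2 starts) the κB consensus matched in 2, GAS in 4, the interferon element core in 1 and TATAAA in 1, and of 32851 mouse promoter windows of this length the shares were 7.25%, 7.02%, 2.98% and 12.4%. A match describes the letters of a window and shows no bound factor, and the absence of a match concerns these windows alone.

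The values are TPM, a transcript's share of its library, which are scaled for transcript length, so that levels of different genes can be set side by side. TPM keep no read numbers, so the depth is unknown, and error could be judged only from how far libraries of a group differed. The listed TPM of a library summed to between 889235 and 903540. A limma fit of log2(TPM + 0.1) over the 3 groups took the 10451 genes that reached 1 TPM in 5 or more libraries, and a gene passed at an adjusted p under 0.01 (Benjamini-Hochberg over all 10451). Log2 differences and folds are on this scale, which understates changes of genes near 0. The median log2 difference of the tested genes was -0.65 with Tat in F/F cells and 0.22 in ΔMye Tat against F/F Tat, so differences after median-ratio scaling, which brings these medians to -0.03 and 0.01, are given as scaled values. Ikbkb, which encodes IKKβ, ranged from 21.6 to 25.4 TPM in F/F Tat and from 12.8 to 19.9 TPM in ΔMye Tat, with means of 23.2 and 16.4 TPM and no overlap (log2 difference -0.51, adjusted p = 4.51e-05, limma); Cre removes part of the gene, so the whole-gene TPM is a weak check of the genotype. Summed macrophage markers (Adgre1, Cd68, Csf1r, Itgam, Mertk and Fcgr1) were 3617 to 3988 TPM for F/F PBS, 2578 to 2827 for F/F Tat and 2706 to 2852 for ΔMye Tat. Most of each sum was Cd68 (means 2596, 1744 and 1886 TPM). With Tat, Csf1r went from a mean of 381 to 64.0 TPM and Fcgr1 from 113 to 300 TPM. Of the 6, 2 were higher and 4 lower with Tat (3 and 1 scaled). In ΔMye Tat against F/F Tat 3 were higher and 1 lower (1 and 1 scaled). Among all tested genes 17% were higher and 67.6% lower with Tat, and 38.8% and 8.87% in ΔMye Tat against F/F Tat. Over all libraries the 6 mast cell markers summed to 24.9 to 46.3 TPM (2 of 5 tested lower in ΔMye Tat than in F/F Tat), the 5 B cell markers to 8.33 to 25.7 TPM and the 5 NK cell markers to 4.49 to 9.17 TPM. Those of neutrophils, dendritic cells, eosinophils and mesothelial cells summed to at most 4.29 TPM, with the neutrophil genes Ngp and Elane at 0 in all libraries. T cell markers are described with Tnfrsf4. In bulk RNA, fewer cells of a type and less RNA per cell cannot be told apart.

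In F/F macrophages every member was higher with Tat. Tnfsf15, Tnfsf10 and Tnf rose most, the TNF receptor Tnfrsf1b rose 2.76-fold, and Tnfrsf1a and Fas rose 1.29-fold and 1.31-fold. All 10 passed the test in the higher direction, where 17% of the 10451 genes did and 67.6% passed in the lower one. Of these 10, 3 (Tnfsf15, Tnfrsf4 and Tnfrsf9) reached the filter through the libraries given Tat and so had to be higher there; the other 7 passed the filter on their F/F PBS libraries alone. A rise of over 3-fold, the study's threshold, was found for 7 of 10 (5.21% of all tested genes, with 19.4% over 3-fold lower), a count of 5 to 8 under the alternatives with all libraries. For 9 of 10 no F/F Tat library overlapped an F/F PBS library (of all tested genes, 15.3% did so as higher and 62.4% as lower). The median difference of the members was 1.94 on the log2 scale, or 2.56 scaled. In ΔMye Tat against F/F Tat the members went apart: Tnf, Fas and Tnfrsf4 were higher, Tnfsf10, Tnfsf9 and Tnfrsf1a lower, and 4 did not pass, where 38.8% of all tested genes passed higher and 8.87% lower. Without overlap, 3 members were higher and 4 lower (28.6% and 8.01% of all tested genes). Scaling moved these backgrounds strongly: with Tat 1774 genes passed higher and 7068 lower as deposited, but 3893 and 3967 scaled, and in ΔMye Tat against F/F Tat 4055 and 927 became 1658 and 2027. Of the members, 1 then passed higher and 5 lower in ΔMye Tat, and still all 10 higher with Tat. These 2 comparisons share the F/F Tat libraries, so the levels of the 3 groups are given side by side.

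**Figure D1:**
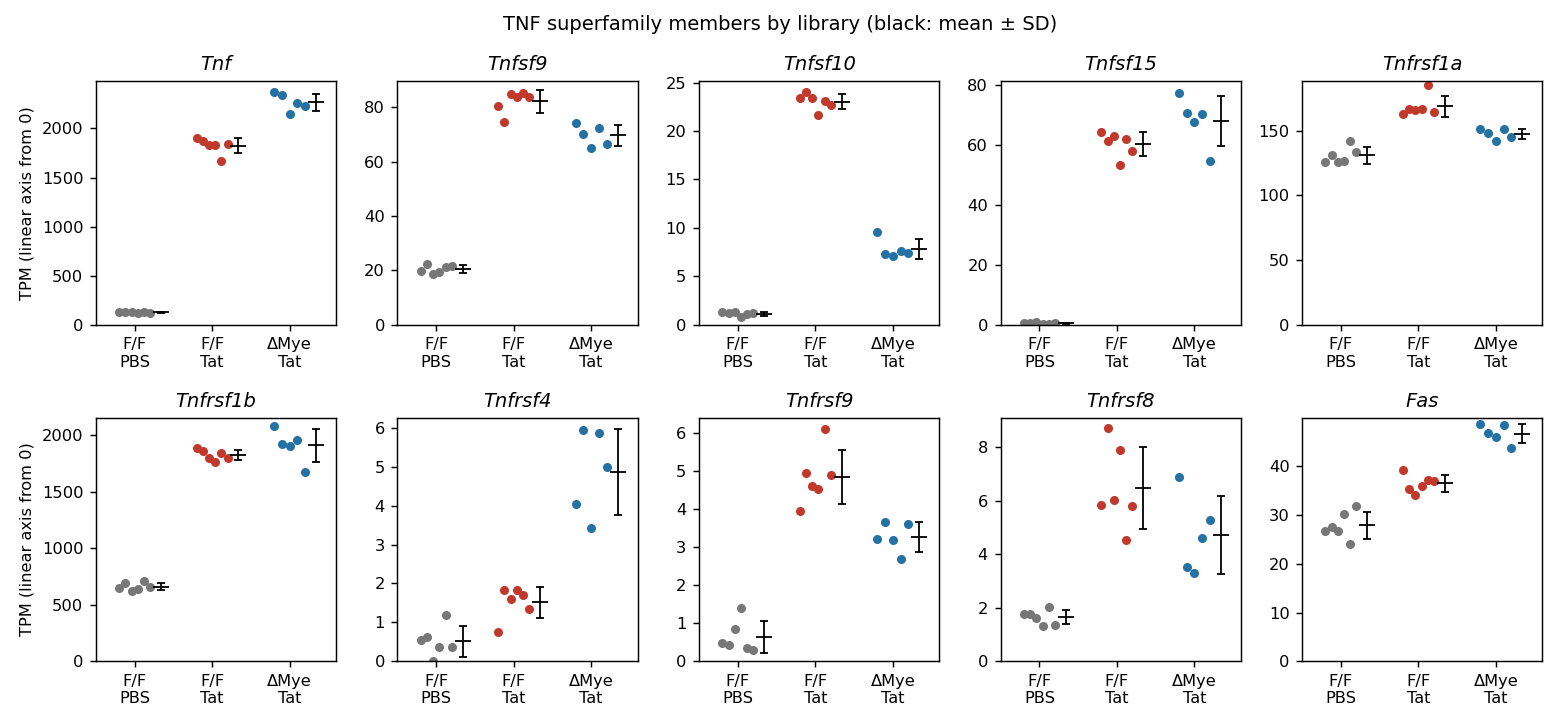
TPM of each of the 10 genes in every library (points) for F/F PBS, F/F Tat and ΔMye Tat, with the mean ± SD in black and linear axes that start at 0 and differ between panels. Tnf, Fas and Tnfrsf4 were highest in ΔMye Tat, whereas Tnfsf10 fell from between 21.7 and 24.0 TPM in F/F Tat to between 7.13 and 9.59 TPM.

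Tnf, which encodes the cytokine TNF, was at 121 to 134 TPM (median 129) in the F/F PBS libraries. In the F/F Tat libraries it was at 1671 to 1905 TPM (median 1838). The ΔMye Tat libraries were at 2371, 2336, 2150, 2255 and 2226 TPM. Every library given Tat stood far above every PBS library, and every ΔMye Tat library above every F/F Tat library. The rise with Tat was 14.3-fold (log2 difference 3.84, SE 0.03, adjusted p = 5.21e-25, limma; scaled 4.47). In the mean, ΔMye Tat stood at 124% of F/F Tat (log2 difference 0.31, SE 0.04, adjusted p = 5.82e-07, limma). The median gene differed by 0.22 in the same comparison, and scaled the Tnf difference was 0.09 with an adjusted p of 0.0622 (limma), which does not pass.

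Tnfsf9 encodes the CD137 ligand, a partner of Tnfrsf9. Its level was 18.8 to 22.3 TPM (median 20.4) in F/F PBS and 74.6 to 85.5 TPM (median 83.9) in F/F Tat. In ΔMye Tat it was 74.3, 70.2, 65.2, 72.4 and 66.7 TPM, just under the F/F Tat range and far above PBS. Tat raised it 4.0-fold (log2 difference 2.0, SE 0.05, adjusted p = 3.46e-18, limma; scaled 2.63), and ΔMye Tat against F/F Tat differed by -0.24 on the log2 scale (SE 0.05, adjusted p = 6.49e-04, limma; scaled -0.46, adjusted p = 1.18e-07).

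Tnfsf10 encodes TRAIL, a ligand of death receptors that is also known as an interferon-induced gene. The F/F PBS libraries were at 0.748 to 1.28 TPM (median 1.25), and the F/F Tat libraries at 21.7 to 24.0 TPM (median 23.2). The ΔMye Tat libraries were at 9.59, 7.29, 7.13, 7.59 and 7.40 TPM, between the other groups and apart from both. Tat raised Tnfsf10 18.8-fold in F/F cells (log2 difference 4.23, SE 0.11, adjusted p = 7.12e-18, limma; scaled 4.83). In the mean, ΔMye Tat held 33.9% of F/F Tat (log2 difference -1.56, SE 0.11, 95% interval -1.80 to -1.32, adjusted p = 1.26e-09, limma; scaled -1.78), the largest fall among the 10 members and 2.94-fold, just short of the fold threshold, which it passed scaled and without ΔMye Tat replicate 19 (-1.63). ΔMye Tat was still 6.38-fold above F/F PBS (log2 difference 2.67, adjusted p = 4.27e-14, limma).

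Tnfsf15 encodes TL1A, whose receptor is the product of Tnfrsf25. It was at 0.349 to 0.821 TPM (median 0.505) for F/F PBS, with no library at 1 TPM, and at 53.1 to 64.0 TPM (median 61.4) for F/F Tat. In ΔMye Tat the libraries were at 77.3, 70.4, 67.4, 70.3 and 54.6 TPM, overlapping F/F Tat. The difference with Tat was the largest of the members, 97.9-fold on the scale of the test (log2 difference 6.61, SE 0.13, adjusted p = 1.34e-19, limma; scaled 7.18). It ran from 5.32 with a pseudocount of 1 to 7.39 with quantile normalization. Between ΔMye Tat and F/F Tat the log2 difference was 0.17 with a 95% interval of -0.12 to 0.46 (adjusted p = 0.291, limma), and it turned to -0.049 after scaling.

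**Figure D2:**
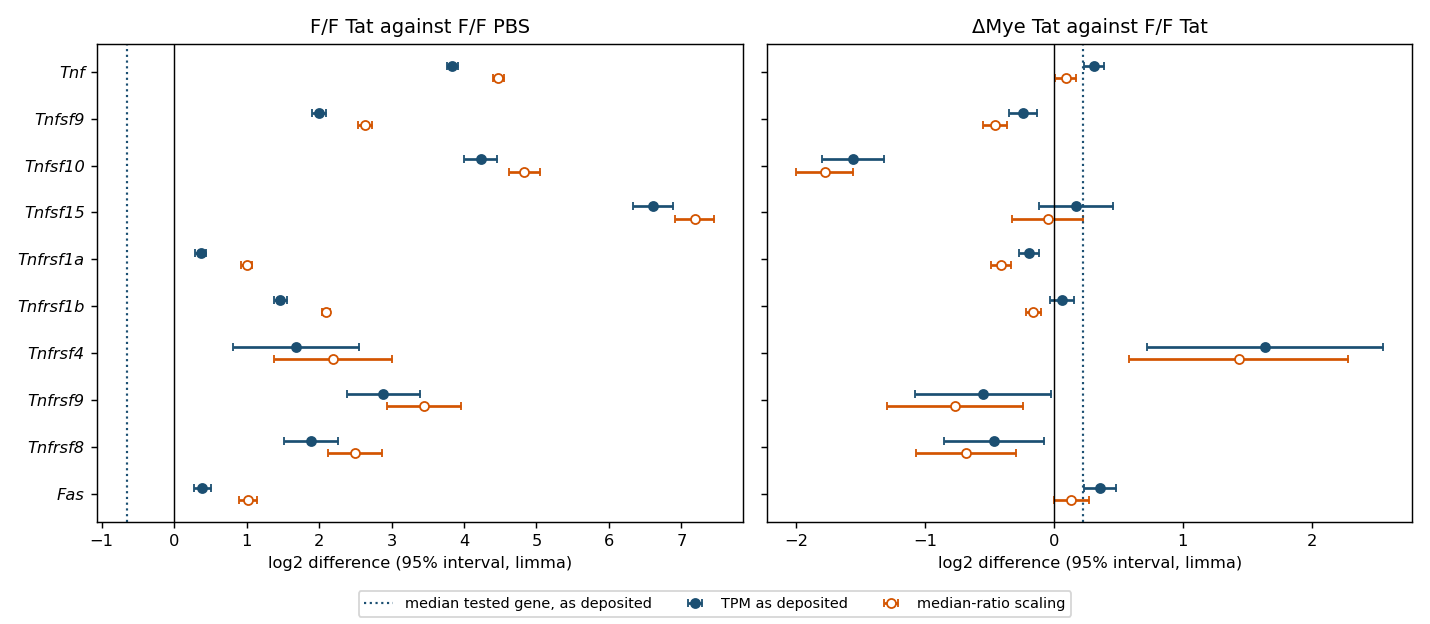
Log2 differences of the 10 genes (limma, with 95% intervals) with Tat in F/F cells (left) and with IKKβ deletion under Tat (right), filled points from the TPM as deposited and open points after median-ratio scaling, with the median tested gene as a dotted line. All 10 lie to the right of 0 with Tat under both; with IKKβ deletion Tnfsf10 (-1.56) and Tnfrsf4 (1.64) stand apart from the rest, which lie between -0.55 and 0.36 before scaling.

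The TNF receptors behaved unequally. Tnfrsf1b, which encodes TNFR2, was at 627 to 708 TPM (median 653) in F/F PBS and at 1767 to 1889 TPM (median 1824) in F/F Tat. Its ΔMye Tat values of 2083, 1928, 1910, 1959 and 1680 TPM overlapped those of F/F Tat. Tat raised it 2.76-fold (log2 difference 1.47, SE 0.04, adjusted p = 3.45e-17, limma; scaled 2.10). Between ΔMye Tat and F/F Tat the difference was 0.06 (95% interval -0.03 to 0.15, adjusted p = 0.225, limma), but -0.16 after scaling, which passed as lower (adjusted p = 1.52e-04).

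Tnfrsf1a, which encodes the death domain receptor TNFR1, was at 125 to 142 TPM (median 129) for F/F PBS, 163 to 185 TPM (median 166) for F/F Tat and 151, 148, 142, 151 and 145 TPM for ΔMye Tat. The F/F Tat libraries were the highest, and the ΔMye Tat libraries lay below all of them. Tat raised it 1.29-fold (log2 difference 0.37, SE 0.04, adjusted p = 1.49e-08, limma; scaled 1.00), and ΔMye Tat against F/F Tat differed by -0.19 (SE 0.04, adjusted p = 3.06e-04, limma; scaled -0.41). The TPM ratio of Tnfrsf1b to Tnfrsf1a within a library, which no scaling between libraries touches, was 5.06 ± 0.145 (SD, n = 6) for F/F PBS, 10.9 ± 0.547 (n = 6) for F/F Tat and 13 ± 0.836 (n = 5) for ΔMye Tat. Transcripts of the TRAF-binding receptor thus gained on those of the death domain receptor in each group given Tat. The ratio of Tnf to Tnfrsf1b went from 0.193 ± 0.0115 for F/F PBS to 1.00 ± 0.0477 for F/F Tat and 1.19 ± 0.0822 for ΔMye Tat.

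Fas encodes the death receptor for Fas ligand. It was at 24.2 to 32.0 TPM (median 27.2) in F/F PBS and at 34.1 to 39.3 TPM (median 36.5) in F/F Tat. The ΔMye Tat libraries, at 48.6, 46.9, 45.9, 48.4 and 43.7 TPM, were the highest, and the 3 groups did not overlap. Tat raised Fas 1.31-fold (log2 difference 0.39, SE 0.06, adjusted p = 3.05e-06, limma; scaled 1.02), and ΔMye Tat was higher by 0.36 (SE 0.06, adjusted p = 5.41e-05, limma). After scaling that second difference was 0.14 with an adjusted p of 0.0869 (limma) and did not pass. Against Tnfrsf1a in the same library, the Fas ratio was 0.214 ± 0.0255 for F/F PBS, 0.217 ± 0.0149 for F/F Tat and 0.317 ± 0.00883 for ΔMye Tat.

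The 3 receptors best known from activated lymphocytes were near the floor of the table. Tnfrsf9 encodes CD137, the receptor for the Tnfsf9 product. It was at 0.312 to 1.41 TPM (median 0.465) in F/F PBS and 3.96 to 6.12 TPM (median 4.76) in F/F Tat, and at 3.21, 3.66, 3.18, 2.70 and 3.61 TPM in ΔMye Tat. Tat raised it 7.38-fold (log2 difference 2.88, SE 0.24, adjusted p = 8.93e-10, limma; scaled 3.45). All ΔMye Tat libraries were below all F/F Tat libraries, yet the difference of -0.55 (95% interval -1.08 to -0.02) had an adjusted p of 0.0672 (limma) and 0.0180 scaled, and did not pass; the exact two-sided permutation test gave p = 0.00433 unadjusted, where these groups allow 0.00216 at the least.

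Tnfrsf8 encodes CD30. Its libraries were at 1.33 to 2.04 TPM (median 1.71) for F/F PBS, 4.53 to 8.74 TPM (median 5.95) for F/F Tat and 6.91, 3.53, 3.32, 4.6 and 5.30 TPM for ΔMye Tat. The groups given Tat overlapped each other and neither overlapped PBS. Tat raised it 3.70-fold (log2 difference 1.89, SE 0.18, adjusted p = 5.92e-09, limma; scaled 2.50). Its ΔMye Tat difference of -0.46 (95% interval -0.86 to -0.07) did not pass (adjusted p = 0.0388, limma), while the scaled difference of -0.68 did (adjusted p = 0.00492), as did the difference of -0.61 without ΔMye Tat replicate 19 (adjusted p = 0.00718).

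Tnfrsf4 encodes OX40. It was listed at 0 in 1 F/F PBS library and at 0.357 to 1.19 TPM in the other 5 (median of all 6, 0.457), and at 0.760 to 1.84 TPM (median 1.66) in F/F Tat. The ΔMye Tat libraries were at 4.03, 5.93, 3.43, 5.86 and 5.0 TPM, all above every other library. The PBS and Tat groups of F/F cells overlapped (log2 difference 1.68, SE 0.42, adjusted p = 9.38e-04, limma). ΔMye Tat was 3.11-fold above F/F Tat (log2 difference 1.64, SE 0.44, 95% interval 0.72 to 2.56, adjusted p = 0.00346, limma; scaled 1.43, adjusted p = 0.00696). It was the only member past the 3-fold threshold in that comparison, where 0.44% of all tested genes were called higher and 0.316% lower, and the scaled fold was 2.70. The fold was also below 3, with the test still passed, without F/F Tat replicate 7 (log2 difference 1.47), ΔMye Tat replicate 20 (1.56) or ΔMye Tat replicate 22 (1.56).

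Markers of T cells were higher together with Tnfrsf4 in ΔMye Tat against F/F Tat. Of the 10 markers listed for T cells and innate lymphoid cells, 8 were tested. In ΔMye Tat against F/F Tat 5 were higher (Cd3d, Cd3e, Cd3g, Cd8a and Thy1) and 0 lower (5 and 1 scaled). Among all tested genes 38.8% were higher and 8.87% lower there. Cd3d, Cd3e and Cd8a stayed below 1 TPM in every F/F Tat library and entered the fit only with the ΔMye Tat libraries. The filter thus favoured part of this count. With Tat in F/F cells 1 was higher and 5 lower as deposited, where 67.6% of all tested genes were lower, but 2 and 0 scaled. All 10 summed to 157 to 179 TPM for F/F PBS, 150 to 166 for F/F Tat and 163 to 177 for ΔMye Tat, and most of that was Il7r, at about the same mean in each group (149 to 152 TPM). Without Il7r, a choice made after its level was seen, the sums were 9.09 to 17.1, 8.33 to 9.95 and 16.98 to 19.2 TPM. No marker was at 0 in all libraries of a group. Cd3e, a chain of the T cell receptor complex, had a mean of 0.724 ± 0.117 TPM for F/F Tat and 1.79 ± 0.295 TPM for ΔMye Tat. Tnfrsf4 as a percent of the sum of the 9 markers was 0 to 10.1% for F/F PBS, 8.74 to 21.1% for F/F Tat and 20.2 to 31.7% for ΔMye Tat. The part of T cells in the Tnfrsf4 difference was not tested. Other superfamily genes known from T cells, named here after their values were seen, did not share 1 order. Over F/F PBS, F/F Tat and ΔMye Tat, Tnfrsf25 had means of 0.227, 0.539 and 1.33 TPM, Tnfsf8 0.221, 0.98 and 2.0 TPM and Tnfrsf18, the neighbour of Tnfrsf4, 0.788, 1.74 and 3.48 TPM. In contrast, Cd27 had means of 0.504, 0.18 and 0.169 TPM, Tnfsf14 1.84, 1.11 and 0.905 TPM, Tnfsf11 0.156, 0.395 and 0.0891 TPM and Cd40lg 0.114, 0.1 and 0.414 TPM. These levels are a description without a test: Tnfrsf25, for one, reached 1 TPM only in ΔMye Tat libraries and so entered the fit through the group where it was high.

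**Figure D3:**
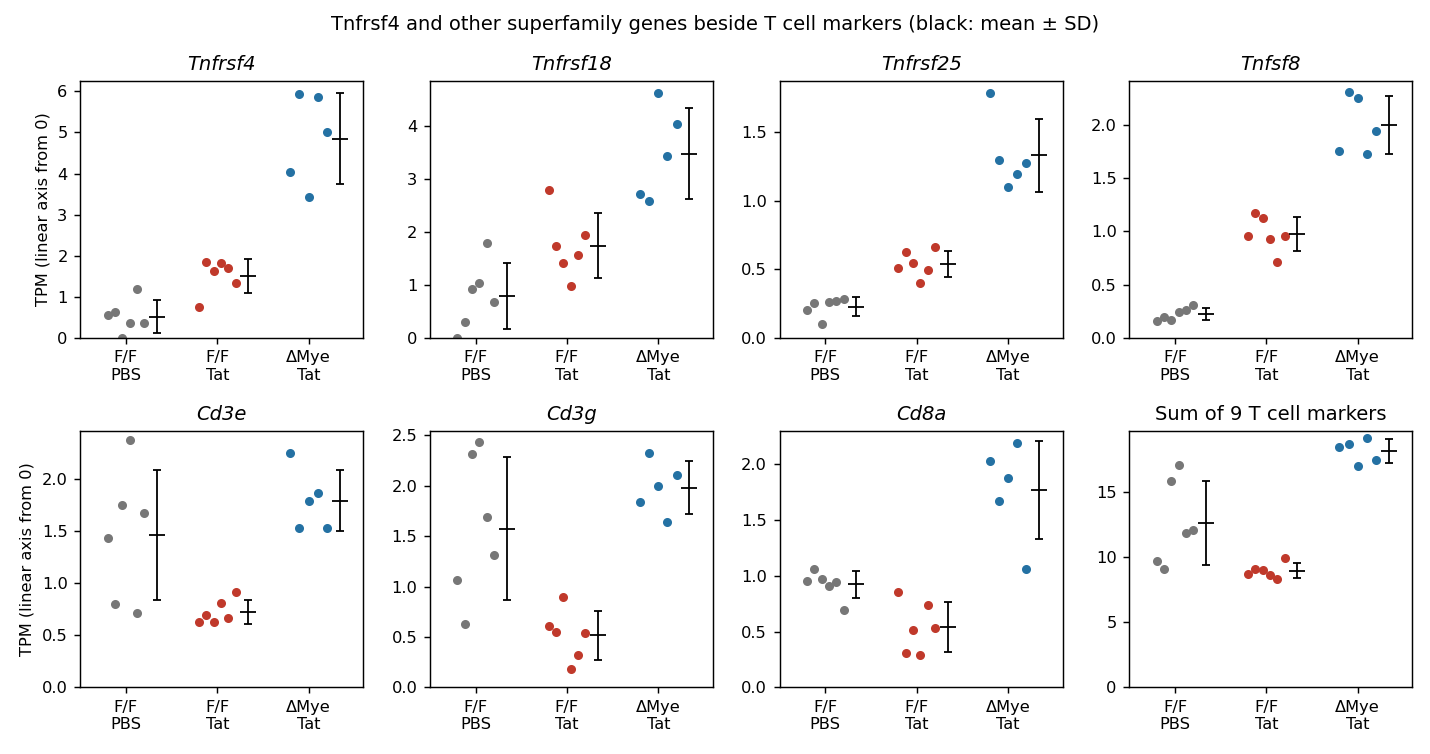
TPM of Tnfrsf4, 3 other superfamily genes chosen after their values were seen, 3 T cell markers and the sum of 9 T cell markers in every library (points), with the mean ± SD in black and linear axes from 0. The ΔMye Tat libraries lie highest for Tnfrsf4 (3.43 to 5.93 TPM), and the marker sum is 16.98 to 19.2 TPM there against 8.33 to 9.95 TPM in F/F Tat.

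The order of the members by TPM changed with Tat. In F/F PBS Tnfrsf1b was highest, followed by Tnfrsf1a and Tnf, whose ranges overlapped, then Fas, Tnfsf9 and Tnfrsf8 as separate steps. Tnfsf10, Tnfrsf9, Tnfsf15 and Tnfrsf4 closed the list with each overlapping the next. In F/F Tat, Tnf overlapped Tnfrsf1b at the top. Below them came Tnfrsf1a, Tnfsf9, Tnfsf15, Fas and Tnfsf10 without overlap between neighbours, then Tnfrsf8 and Tnfrsf9 with overlapping ranges, and Tnfrsf4. In ΔMye Tat, Tnf stood alone at the top, Tnfsf9 and Tnfsf15 overlapped, and Tnfrsf4, Tnfrsf8 and Tnfrsf9 overlapped at the bottom. Tnf and Tnfrsf1b together made up 81.1% ± 0.514 of the summed TPM of the 10 genes for F/F PBS, 90.5% ± 0.435 for F/F Tat and 92.2% ± 0.0999 for ΔMye Tat, and that sum was 973 ± 38.5, 4037 ± 92.5 and 4532 ± 225 TPM.

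Against F/F PBS, which differs from ΔMye Tat in both genotype and treatment, all 10 members passed as higher in ΔMye Tat (17.5% of all tested genes, with 58.8% lower), and 6 rose over 3-fold (4.38%, with 11.1% lower), or 4 to 8 under the alternatives with all libraries. Tnfsf15, Tnfrsf4 and Tnfrsf9 are among the 6. They reached the filter through the libraries given Tat, which favoured a higher level in ΔMye Tat here too. For 9 of 10, the values did not overlap F/F PBS (14.8% higher and 52.8% lower among all tested genes), the exception being Tnfrsf1a. Tnf was 17.8-fold higher (log2 difference 4.15), Tnfsf9 3.39-fold, Tnfsf15 110-fold, Tnfrsf4 9.996-fold and Tnfrsf9 5.04-fold. Tnfrsf1a had the smallest difference (0.17, adjusted p = 3.95e-04, limma).

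For each member the 2 tested genes with the most similar profile were taken, by the root mean square (RMS) distance of log2 values centred on each gene's mean over the 17 libraries. For Tnf these were Cxcl3, a neutrophil chemokine, and Mmp13, a collagenase, both at a distance of 0.178. Tnfrsf1b was closest to Tgm2 (0.0433) and Ehd1 (0.0675), and Tnfsf9 to Slfn8 (0.0849) and the peptide transporter gene Tap1 (0.0865). Tnfsf10 was nearest to the heat shock gene Hspa1b (0.260) and Enpp4 (0.261), which went from 6.01 to 82.9 and 31.1 TPM over the 3 groups. Tnfsf15 lay beside Ptx3 (0.237), which encodes a pentraxin, and the chemokine gene Ccl5 (0.368). Tnfrsf1a had Tcirg1 and Poldip3, Fas had Ccdc86 and the interferon receptor gene Ifnar2, Tnfrsf8 had Rabgef1 and Hspa1l, and Tnfrsf9 had Nr4a3 and Daxx. Tnfrsf4 had no close neighbour: Ak4 and Tnfsf8 were at 0.704 and 0.773. Its F/F PBS level was near the floor (0.515 ± 0.397 TPM, SD, with 1 library at 0), and spread there widens all its log2 distances. The measure says nothing of shared control.

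Of 14 other ligands of the superfamily, 7 were tested. With Tat 4 were higher and 3 lower (4 and 2 scaled), with a median log2 difference of 0.59 against -0.65 for all tested genes, and in ΔMye Tat against F/F Tat 4 were higher and 1 lower (median 0.94 against 0.22). The shares of all tested genes were 17% higher and 67.6% lower with Tat, and 38.8% and 8.87% in ΔMye Tat against F/F Tat. The filter favoured part of these counts and medians. Cd70 and Tnfsf8, higher with Tat, were at most 0.123 and 0.305 TPM in F/F PBS and entered the fit through libraries given Tat. Tnfsf8 was also higher in ΔMye Tat (1.73 to 2.31 TPM) than in F/F Tat (0.712 to 1.17 TPM), and every ΔMye Tat library reached 1 TPM. Lta, which encodes lymphotoxin α, a second ligand of both TNF receptors, was at 2.05 to 2.89 TPM (median 2.26) in F/F PBS and 68.8 to 76.3 TPM (median 71.5) in F/F Tat, a 29.3-fold rise (log2 difference 4.87, adjusted p = 1.76e-20, limma). In ΔMye Tat it was at 10.02 to 13.3 TPM (median 11.6), a log2 difference from F/F Tat of -2.59 (adjusted p = 2.70e-14, limma; scaled -2.82), with no overlap between any 2 groups. Its neighbour Tnf did not follow. The ratio of Tnf to Lta was 54.4 ± 7.03 (SD, n = 6) for F/F PBS, 25.3 ± 0.664 (n = 6) for F/F Tat and 192.4 ± 23.4 (n = 5) for ΔMye Tat. Ltb on the other side of Tnf, named after its values were seen, had means of 5.46, 7.97 and 15.4 TPM in the same order (ΔMye Tat against F/F Tat 0.94, adjusted p = 5.95e-05, limma). As deposited, these 3 adjacent genes thus had their highest level in different groups: Lta in F/F Tat, Tnf and Ltb in ΔMye Tat. For Tnf the difference between the groups given Tat did not pass after scaling (0.09, adjusted p = 0.0622, limma). The part of lymphocytes in the Ltb difference was not tested.

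**Figure D4:**
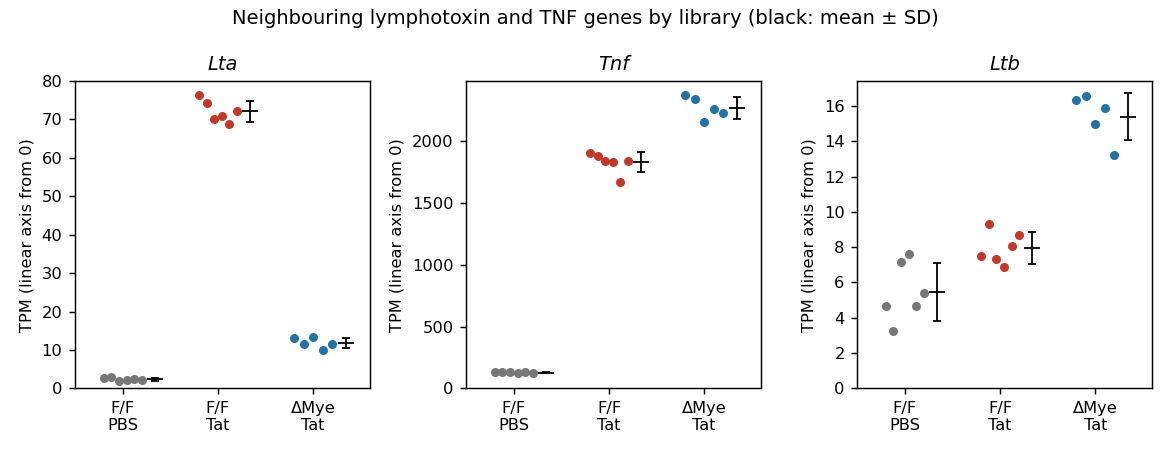
TPM of Lta, Tnf and Ltb, adjacent on chromosome 17, in every library (points), with the mean ± SD in black and linear axes from 0. Lta fell from 68.8 to 76.3 TPM in F/F Tat to 10.02 to 13.3 TPM in ΔMye Tat, while Tnf was higher in ΔMye Tat (2150 to 2371 TPM) than in F/F Tat (1671 to 1905 TPM).

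Tnfsf12, which encodes TWEAK, and Tnfsf13, which encodes the B cell factor APRIL, went the other way. Tnfsf12 fell by 3.11 on the log2 scale with Tat (means 157 and 18.2 TPM, adjusted p = 2.37e-19, limma) and was 35.7 TPM in ΔMye Tat (0.98 above F/F Tat, adjusted p = 6.24e-10). Tnfsf13 fell by 2.59 (43.7 to 7.28 TPM, adjusted p = 3.30e-14) and was 14.5 TPM in ΔMye Tat (1.00 above F/F Tat, adjusted p = 7.97e-07). Their values are uncertain, because they overlap on 1 strand with the fusion gene Tnfsfm13, with which they share 47.4% and 58.4% of their 31-base sequences.

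Of 22 other receptors 14 were tested, and with Tat 5 were higher, 6 lower and 3 neither (8 and 3 scaled), and in ΔMye Tat against F/F Tat 4 were higher and 3 lower (3 and 6 scaled). Their median log2 differences were -0.22 and -0.05, against -0.65 and 0.22 for all tested genes. Of all tested genes, 17% were higher and 67.6% lower with Tat, and 38.8% and 8.87% in ΔMye Tat against F/F Tat. Here too the filter favoured part of the counts and medians. Tnfrsf25, higher in both comparisons, reached 1 TPM only in ΔMye Tat libraries (1.10 to 1.79 TPM). Tnfrsf18, higher with Tat, entered through libraries given Tat, with medians of 0.800 TPM in F/F PBS and 1.65 TPM in F/F Tat. Cd40, the receptor through which T cells stimulate macrophages, went from 35.9 ± 2.04 to 908 ± 27.1 TPM with Tat (log2 difference 4.66, adjusted p = 2.07e-26, limma). Its ΔMye Tat level of 856 ± 16.2 TPM did not pass as lower (-0.09, adjusted p = 0.0426), except after scaling (-0.31, adjusted p = 1.40e-05). Relt fell by 3.24 (11.2 to 1.21 TPM, adjusted p = 3.10e-10) and Tnfrsf21, a death domain receptor, by 1.80 (44.6 to 12.7 TPM, adjusted p = 4.99e-15). Relt was higher in ΔMye Tat (2.47 TPM, 1.12, adjusted p = 0.00127, limma), except with quantile normalization (0.79, adjusted p = 0.0185), and so was Tnfrsf14, the herpesvirus entry mediator (50.1 to 82.9 TPM, 0.71, adjusted p = 3.40e-04). Tnfrsf12a, the TWEAK receptor, was at 10.9, 10.7 and 7.25 TPM over the groups in the same order, where the second step passed as lower (-0.58, adjusted p = 0.00131) and the first, -0.017, turned to 0.61 after scaling. In ΔMye Tat against F/F Tat, Tnfrsf26 fell by 0.54 (12.3 to 8.47 TPM, adjusted p = 4.61e-07). Some partners of the members outside these rules, chosen after their values were seen, were low: Tnfrsf10b, a mouse death receptor for TRAIL, had group means of 0.595 to 0.697 TPM, the OX40 ligand gene Tnfsf4 0.153 to 0.879 TPM and Fasl 0.144 to 0.685 TPM.

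The list of adaptors and enzymes at the receptors had 25 genes in the table, all tested. With Tat 12 were higher, 9 lower and 4 neither (18 and 5 scaled, median 0.22). The shares of all tested genes were 17% higher and 67.6% lower (median -0.65). In ΔMye Tat against F/F Tat 9 were higher, 5 lower and 11 neither (4 and 9 scaled, median 0.09). The shares there were 38.8% higher and 8.87% lower (median 0.22). The TRAF family adaptor gene Traf1 rose with Tat by 4.18 on the log2 scale (22 to 397 TPM, adjusted p = 3.92e-21, limma). Mlkl, which encodes the executor of necroptosis, rose by 2.97 (57.1 to 448 TPM, adjusted p = 3.88e-24), and the A20 gene Tnfaip3 by 3.02. In ΔMye Tat against F/F Tat, Mlkl fell by 0.60 to 296 TPM (adjusted p = 1.40e-11) and Casp8, the initiator caspase of the death receptors, by 0.71, from 143 to 87.4 TPM (adjusted p = 1.54e-11). Traf5 was higher there (21.3 to 34.5 TPM, 0.68, adjusted p = 4.53e-04).

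Shedding genes were a list of 5, and with Tat 1 was higher and 3 lower (2 and 3 scaled, median -0.94). Timp3, 1 of the 3 lower, stayed below 1 TPM in every library given Tat and entered the fit through F/F PBS, which favoured its direction. All tested genes were 17% higher and 67.6% lower (median -0.65). In ΔMye Tat against F/F Tat 2 shedding genes were higher and 0 lower (2 and 3 scaled, median -0.13). All tested genes were 38.8% higher and 8.87% lower there (median 0.22). Adam17, which encodes the protease that releases TNF and its receptors, fell by 0.94 with Tat, from 114 ± 9.0 to 59.3 ± 2.78 TPM (adjusted p = 1.05e-12, limma; scaled -0.31). In ΔMye Tat it was at 110 ± 6.68 TPM, above every F/F Tat library (0.89, adjusted p = 8.90e-11, limma; scaled 0.66). Adam10, a related protease, fell by 1.91 (65.7 to 17.4 TPM, adjusted p = 1.97e-16) and was 26.8 TPM in ΔMye Tat (0.62 above F/F Tat, adjusted p = 1.29e-07). Rhbdf2, whose product carries the Adam17 protein to the cell surface, rose by 1.39 (43.5 to 114 TPM, adjusted p = 6.62e-13) and did not pass in ΔMye Tat against F/F Tat (-0.13, adjusted p = 0.138), with -0.36 after scaling (adjusted p = 5.37e-05). In F/F Tat, where Tnf had risen 14.3-fold, the transcript for its protease was thus at its lowest of the 3 groups.

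**Figure D5:**
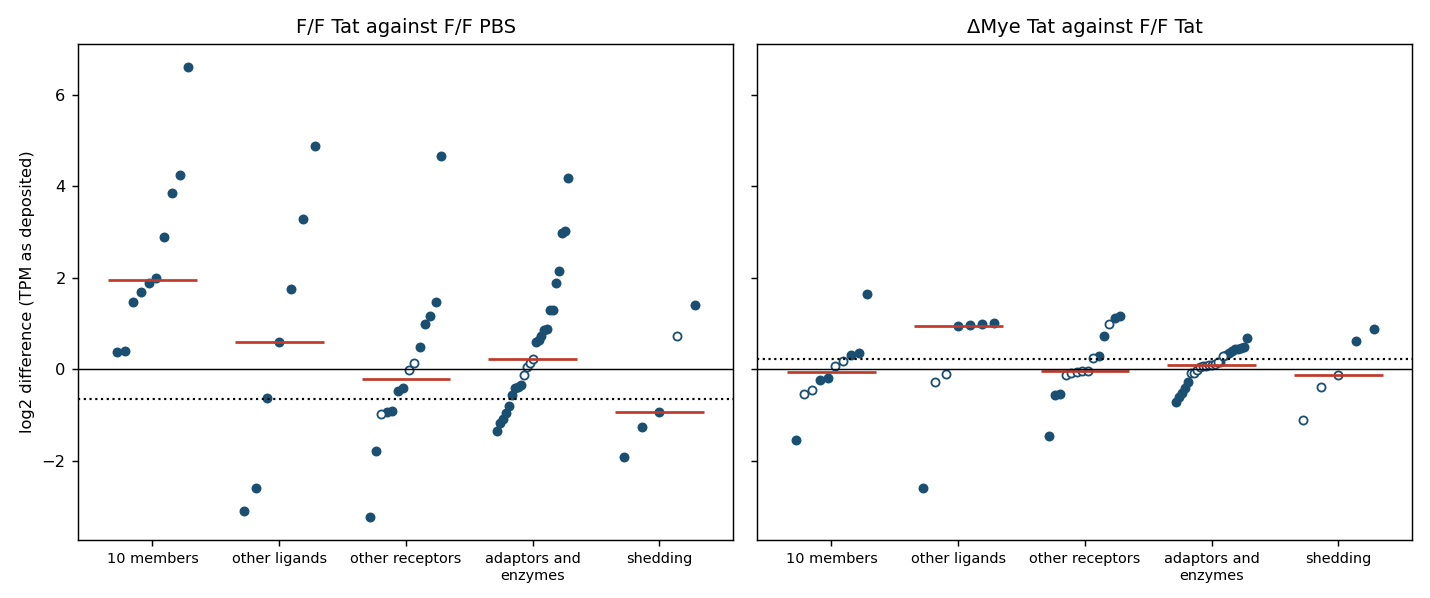
Log2 difference (TPM as deposited) of every tested gene in the 10 members, other ligands, other receptors, adaptors and enzymes, and shedding genes, with Tat in F/F cells (left) and with IKKβ deletion under Tat (right). Filled points passed at an adjusted p under 0.01, red bars are list medians (1.94 for the members with Tat, -0.07 with IKKβ deletion) and the dotted line is the median of all tested genes.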

How the data were processed

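RNA-Seq was analysed in 17 libraries of cultured mouse peritoneal macrophages, grouped by the sample labels. A further allele that all groups share is not reported here. The authors ran Salmon against Ensembl's mouse annotation (GRCm38) and deposited TPM per gene symbol; whether strand was used, and whether these TPM were scaled between libraries, is not given in the sources used here. Their own comparison used read counts with TMM normalization and was not repeated, since TPM hold no read counts and the depth of each library is unknown. The study's thresholds (adjusted p under 0.01, fold over 3) were kept.

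The 10451 genes that reached 1 TPM in 5 or more libraries entered 1 linear model of log2(TPM + 0.1) over the 3 groups without covariates, in R 4.3.3 with limma 3.58.1 and eBayes with trend (14 residual degrees of freedom). Adjusted p-values are Benjamini-Hochberg over all tested genes. The fit was tested on simulated data beforehand. Single members were also compared by exact two-sided permutation tests, whose smallest p is 0.00216. The labels number the libraries as separate samples, and p-values measure the spread between them. No 2 libraries were near-identical.

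Members, lists and tests were chosen with earlier results of these data known. All 10 members are named, and of each other list the 3 genes with the largest difference that passed and reached a mean of 5 TPM in the higher group, for Tat in F/F cells and for IKKβ deletion under Tat. The 2 nearest genes by RMS distance and Ikbkb are named too, and exceptions are marked in the text.

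The fit was repeated with pseudocounts of 0.5 and 1, without the filter or with one of 5 TPM, after median-ratio scaling or quantile normalization, on the compared groups alone, with array weights and robust eBayes, and leaving out each library. Tables and plots were made with pandas 2.3.3, numpy 2.4.6 and matplotlib 3.10.9 (Python 3.11.15). Gene positions came from GENCODE M21 (GRCm38), and promoter sequences from RefSeq (GRCm38.p6).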

Additional observations from a re-analysis of the deposited data

Results flagged for a closer look

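In 30 tests, 1 for each member in each group, a single library stood far from the rest of its group 4 times by Dixon's criterion, where chance gives about 1 in 20. In F/F Tat replicate 11, Tnf was the lowest of its group at 1671 TPM and Tnfrsf1a the highest at 185 TPM. Without that library the log2 difference of ΔMye Tat against F/F Tat was 0.29 for Tnf (adjusted p = 8.00e-07, limma) and -0.16 for Tnfrsf1a (adjusted p = 6.06e-04), and the difference with Tat was 3.86 and 0.34. Tnfsf10 was low in F/F PBS replicate 4 at 0.748 TPM, and without it the difference with Tat was 4.12 (adjusted p = 5.49e-19, limma). Tnfsf10 was high in ΔMye Tat replicate 19 at 9.59 TPM, and without that library the difference from F/F Tat was -1.63 (adjusted p = 1.52e-09, limma), which is past the 3-fold threshold. No direction and no pass changed in these 4 cases.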

How the results depend on the processing

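All 10 members passed as higher with Tat under every alternative that tested them; a filter of 5 TPM left Tnfrsf4 and Tnfrsf9 untested. In ΔMye Tat against F/F Tat, 3 members passed higher and 3 lower as deposited, and 1 and 5 with median-ratio scaling, under which Tnf (0.09) and Fas (0.14) lost their pass, Tnfrsf8 (-0.68) gained one, Tnfrsf1b turned negative and passed (-0.16), and Tnfsf15 turned negative (-0.049). Fas also failed with quantile normalization (0.22, adjusted p = 0.0156, limma; 1.76e-05 to 0.0869 over the alternatives with all libraries), and Tnfrsf9 passed with a pseudocount of 1 (-0.45, adjusted p = 0.00760) and with only the compared groups (adjusted p = 0.00129, against up to 0.115 over the other alternatives with all libraries and 0.0131 to 0.138 with a library left out). Tnfrsf8 passed with quantile normalization and with robust eBayes too (adjusted p 0.00492 to 0.0686 over these alternatives, 0.00718 without ΔMye Tat replicate 19 and up to 0.120 with another library left out). Against F/F PBS, only Tnfrsf1a lost its pass, with quantile normalization (0.11, adjusted p = 0.0111). With Tat, the 7 members over 3-fold higher became 6 with a pseudocount of 0.5 (Tnfrsf4 at 1.05), 5 with a pseudocount of 1 (Tnfrsf4 0.75, Tnfrsf8 1.48) or the 5 TPM filter, 8 with scaling, and 6 without F/F PBS replicate 3 (Tnfrsf4 1.23). In ΔMye Tat against F/F Tat, the 1 higher member over 3-fold (Tnfrsf4) became 0 with a pseudocount of 0.5 or 1, the 5 TPM filter, scaling or quantile normalization, and 0 to 1 with a library left out. The 0 lower members became 1 (Tnfsf10) with scaling, quantile normalization or robust eBayes with array weights, and 0 to 1 with a library left out. Tnfrsf12a with Tat (-0.017) turned to 0.61 with scaling, 0.69 with quantile normalization, and ranged from -0.081 to 0.050 with a library left out, above 0 without F/F PBS replicate 1 or 3 or F/F Tat replicate 7 or 9. Tnfrsf21 in ΔMye Tat against F/F Tat ranged from -0.084 to 0.024 with a library left out, above 0 without ΔMye Tat replicate 23, but passed as lower with scaling (-0.26, adjusted p = 0.00118) and quantile normalization (-0.25, adjusted p = 0.00227), and Relt there lost its pass with quantile normalization (0.79, adjusted p = 0.0185). The causes of these changes were not tested. No paired analysis was made: the replicate numbers are running library numbers, which do not show whether PBS and Tat cultures of F/F cells came from the same mice. Depth limits the members near 1 TPM (Tnfrsf4, Tnfrsf9, Tnfrsf8), whose counting error is unknown. This also holds for Tnfsf15 and Tnfsf10 in F/F PBS (means of 0.531 and 1.15 TPM), on which their folds with Tat rest.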
